A study of Mus musculus with 6 samples.

Results

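Ribosome biogenesis factors are the nucleolar and nuclear proteins that transcribe, cut, modify and fold ribosomal RNA and load ribosomal proteins onto it, and that leave the particle before it translates. A set of 45 genes for such factors was followed here, chosen by name from the pathway with earlier results of these data known. The counts below are therefore a description and not a test of the set. All 45 were found by gene name among the 37074 gene names on the array, and their levels were compared in haematopoietic stem and progenitor cells of mice labelled as having or lacking Atg5 in blood cells. Of the 45, 43 passed as higher on the arrays labelled Atg5f/f;Vav and none as lower, where 18.7% of all gene names tested passed as higher and 15.3% as lower. The median log2 difference was 0.84, or 1.79-fold.

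Lineage- cells positive for Sca-1 and c-Kit (LSK cells), the bone marrow fraction that holds haematopoietic stem cells and early progenitors, were sorted from C57BL/6 mice at P6 to P8, and total RNA was hybridised to 1-colour Agilent arrays with 60-base probes. The control group was Atg5w/w;Vav and the other group Atg5f/f;Vav, with 3 arrays each. Both groups carried the Vav-iCre transgene, which drives recombination in haematopoietic cells and, as is known of it, in some endothelial cells, so the groups differed in the floxed Atg5 allele. Atg5 is needed for conjugation of LC3 to the autophagosomal membrane. The labels do not say whether an array holds RNA of 1 mouse or of several, so n, SD and p-values refer to arrays and their spread may be partly technical.

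Every level given here is a log2 signal, the log2 intensity of a probe minus the 75th percentile of its array over all spots that are not controls, and every difference is the mean of the arrays labelled Atg5f/f;Vav minus the control mean on that scale. Where a gene's array values are listed, those of control replicates 1 to 3 come first, set against those of replicates 1 to 3 labelled Atg5f/f;Vav. A gene is represented by its probe with the highest mean signal. A gene passed the test where limma gave an adjusted p under 0.05, with Benjamini-Hochberg adjustment over the 32074 probes tested, each well above background on 3 or more of the 6 arrays. The representing probes of all 45 genes were well above background on all 6 arrays, so no gene of the set was lost to the filter on dim probes. Utp18, however, was kept only by a probe named after a cDNA clone, because the filter removed its RefSeq probe. Probe signals of different genes are not set against each other, since brightness also depends on the probe.

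Several properties of the arrays bear on each value below. Atg5 itself had 1 probe, at 1.10, 0.93 and 1.06 against 1.46, 1.51 and 1.74, a difference of 0.54 ± 0.12 (SE, limma adjusted p = 0.0209) in the direction opposite to the label. The probe starts at base 2251 of the transcript, and it was not determined whether it falls within the floxed stretch. Its signal therefore does not show the state of the allele, and directions are stated as the labels give them. By other assays, the paper reports efficient Atg5 deletion with this transgene and impaired autophagy in LSK cells of Atg5f/f;Vav mice. The single slide held the controls in row 1 and the arrays labelled Atg5f/f;Vav in row 2, so its rows and the genotypes cannot be told apart. Between 53.6% and 56.7% of spots were well above background on the arrays labelled Atg5f/f;Vav, against 59.4% to 59.9% on the control arrays. The number of arrays limits the precision: with 3 against 3, an exact permutation test over arrays cannot give a 2-sided p below 0.1.

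The RNA that ribosomes are built on begins as 1 long precursor, which RNA polymerase I transcribes in the nucleolus. Small nucleolar ribonucleoproteins (snoRNPs) modify it, the small subunit processome folds and cuts the part that becomes 18S rRNA, and separate factors mature the large subunit. The pathway is known to run high in growing and dividing cells and low in quiescent stem cells, and Myc is a known activator of many of its genes, which it binds at E-boxes such as CACGTG.

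This E-box was looked for in RefSeq promoters on GRCm38.p6, taken from 250 bases before to 50 bases after each gene's start. CACGTG reads the same on both strands. Of the 40 genes of the set with a promoter entry (all but Bop1, Fbl, Npm1, Rrp12 and Rrs1), 9 held it, which is 22.5%, against 8.09% of the 27025 genes in the promoter table and 8.91% of its 17492 protein-coding genes. The holders were Imp4, Ltv1, Mybbp1a, Nop2, Pes1, Tsr1, Utp18, Utp20 and Wdr43. Stretches of 30 bases from 4 genes are printed to show where the motif, in capitals, stands: upstream of the start in Imp4, Nop2 and Utp18, and just inside the transcribed part in Wdr43, the holder with the largest difference.
Imp4 (chr1:34439696-34439725, + strand): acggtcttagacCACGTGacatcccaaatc
Nop2 (chr6:125131811-125131840, + strand): gtgtccctggatCACGTGtgttccggtgcc
Utp18 (chr11:93885769-93885798, - strand): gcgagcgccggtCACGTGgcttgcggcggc
Wdr43 (chr17:71616220-71616249, + strand): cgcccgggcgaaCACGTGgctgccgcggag
With the start counted as 0, the motif begins at -121 in Imp4, -60 in Nop2, -20 in Utp18 and 17 in Wdr43. In the holders not printed it also begins after the start, at 28 in Ltv1, 40 in Mybbp1a, 2 in Pes1, 24 in Tsr1 and 37 in Utp20. Most holders thus have it inside the transcribed part. The median difference of the 9 holders was 0.75, with a range of -0.45 to 1.03, and that of the 31 other genes with an entry was 0.89, from 0.31 to 1.49. A match is a description of these letters and not a measured binding site. The shares were not matched for base content, and the part of Myc in the result was not tested.

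Across the whole set, 43 of the 45 genes had groups whose signals did not overlap. No gene was lower at an unadjusted p under 0.05 either. Among all 20778 gene names tested, 29.6% had groups that did not overlap with Atg5f/f;Vav higher, and among the 13071 tested protein-coding genes 22.6% passed as higher. The median difference over all gene names was -0.03, and 15.7% of them exceeded 0.5, against 86.7% of the set. The distance between the highest control array and the lowest array labelled Atg5f/f;Vav ran from 0.15 to 0.85 among the genes that passed. Without control replicate 1 or without control replicate 2 no gene of the set passed in limma, with lowest adjusted p of 0.0552 and 0.0599, although 42 of 45 then had an unadjusted p under 0.05 in each case and the median difference was 0.83 and 0.78. Over all gene names, 124 and 108 then passed as higher and 78 and 54 as lower. Student's unpaired test on the same values, called the methods' t-test below, also gave 0 after adjustment, with 43 genes at an unadjusted p under 0.05. The paper names this test for group comparisons in general, and names gene set enrichment analysis for its arrays.

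**Figure D1:**
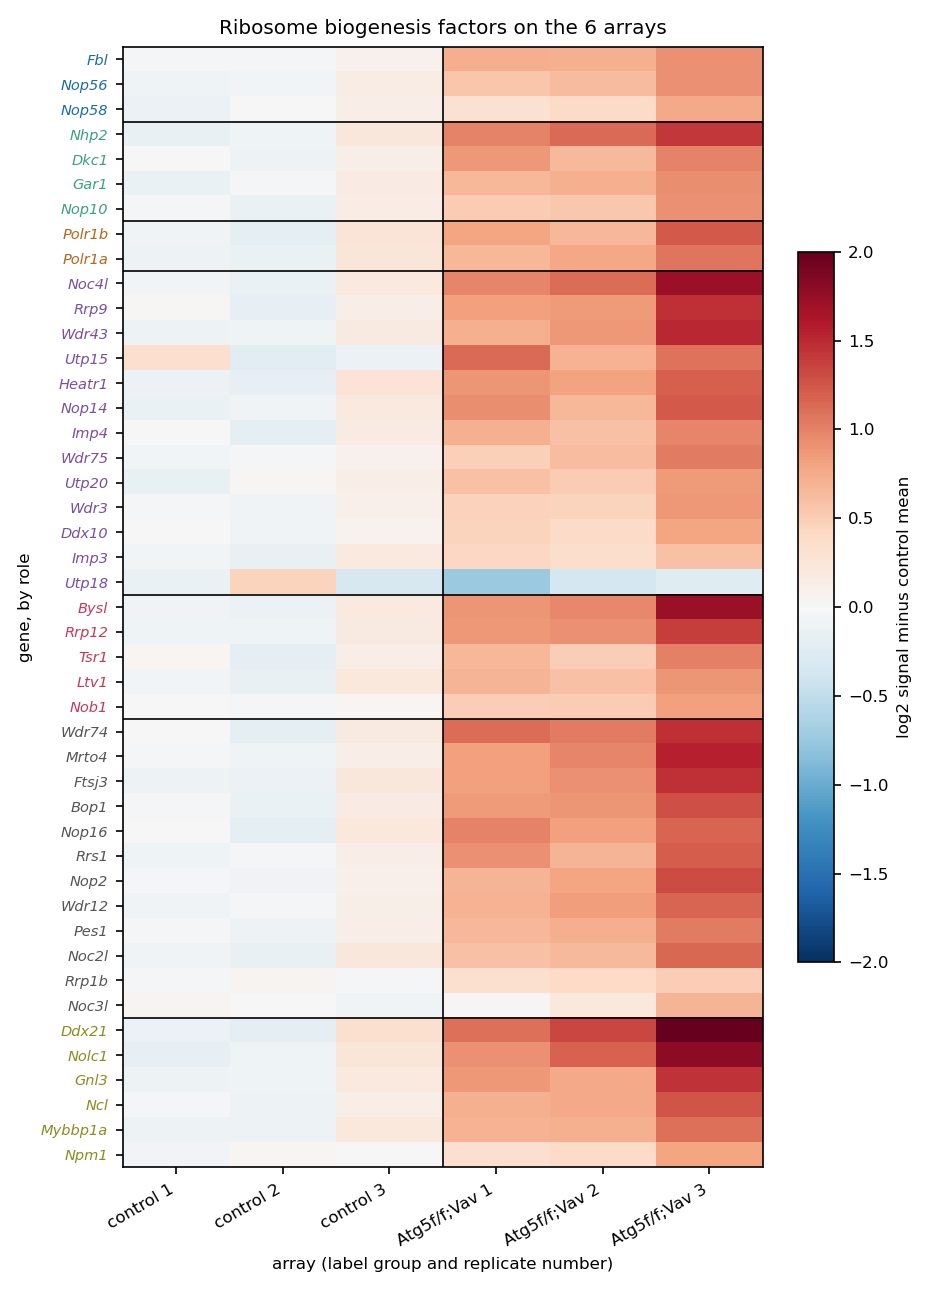
Log2 signal of the 45 ribosome biogenesis factors (rows, coloured and grouped by role) on each of the 6 arrays (columns), as the difference from the control mean of the gene (colour scale, from -2 to 2). All but Utp18 and Noc3l separate the groups, and Atg5f/f;Vav replicate 3 is the highest array of its group in 44 of 45 genes; Utp18 turns to a difference of 0.09 under spike-in scaling.

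RNA polymerase I was represented by its catalytic core. Polr1a, the largest subunit, stood at 2.18, 2.14 and 2.52 against 2.94, 3.06 and 3.36, a difference of 0.84 ± 0.16 (SE, limma adjusted p = 0.0168). Polr1b, the second largest subunit, stood at 0.60, 0.47 and 0.93 against 1.44, 1.32 and 1.89, a difference of 0.89 ± 0.19 (SE, limma adjusted p = 0.0192). In both genes the lowest array labelled Atg5f/f;Vav was above the highest control. Each gene has a further tested probe, named after another transcript than the RefSeq mRNA, and these gave 0.19 (limma adjusted p = 0.392) for Polr1a and -0.15 (limma adjusted p = 0.54) for Polr1b. With the mean of all detected probes in place of the brightest, Polr1b no longer passed.

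The box C/D snoRNP proteins, which carry out 2′-O-methylation of rRNA, rose in 3 of 3 genes, with a median difference of 0.70. Fbl, the methyltransferase fibrillarin, was at 6.21, 6.21 and 6.33 against 6.98, 6.96 and 7.17, a difference of 0.79 ± 0.11 (SE, limma adjusted p = 0.0137). Its arrays lay close together within each group. Nop58, a scaffold protein of the particle, had 3.84, 3.96 and 4.08 against 4.27, 4.34 and 4.71 and the smallest difference of the 3 genes, 0.48 ± 0.15 (SE, limma adjusted p = 0.0484). The call was lost without control replicate 3 and without Atg5f/f;Vav replicate 2 or 3. Of its further probes, those named after RefSeq mRNA gave 0.63, 0.70 and 0.70 and passed, and the one named after another transcript gave 0.19. Nop56, the partner scaffold, differed by 0.70.

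The box H/ACA snoRNP proteins, which convert uridine to pseudouridine in rRNA, rose in 4 of 4 genes, with a median difference of 0.80. Nhp2 was at 4.69, 4.75 and 5.07 against 5.83, 5.97 and 6.25, a difference of 1.18 ± 0.16 (SE, limma adjusted p = 0.0124), or 2.26-fold. It had the largest difference of the snoRNP proteins. Nop10, the smallest of these proteins, was at 3.99, 3.88 and 4.15 against 4.51, 4.54 and 4.92, a difference of 0.65 ± 0.15 (SE, limma adjusted p = 0.0221). Dkc1, the pseudouridine synthase dyskerin, differed by 0.83 and Gar1 by 0.77.

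In the small subunit processome 12 of 13 genes rose, with a median difference of 0.75. Noc4l, which works with Nop14, had the largest difference of this group: 2.37, 2.29 and 2.63 against 3.40, 3.55 and 4.14, or 1.27 ± 0.21 (SE, limma adjusted p = 0.0149). Its second probe gave 1.29. The subunits of the first module to bind the precursor, Heatr1, Utp15, Wdr43 and Wdr75, differed by 0.96, 0.97, 1.03 and 0.71. The U3 snoRNP protein Rrp9 differed by 1.05 and Nop14 by 0.94. The smaller rises were those of the U3-associated Imp4 and Imp3, at 0.75 and 0.45, the scaffold Utp20 at 0.65, Wdr3 at 0.59 and the helicase Ddx10 at 0.54. The call of Imp3 was lost without any one array labelled Atg5f/f;Vav, and its difference was 0.08 (limma adjusted p = 0.558) under quantile normalisation. Ddx10 lost its call without control replicate 3.

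Utp18 was the only gene of the set with a difference below 0. Its signal was -2.80, -2.21 and -2.97 against -3.41, -3.02 and -2.90, so the groups overlapped, and the difference of -0.45 ± 0.23 (SE, limma adjusted p = 0.163) did not pass and turned to 0.09 (limma adjusted p = 0.902) when arrays were scaled on spike-in transcripts. This probe is named after a cDNA clone and not after the RefSeq mRNA, and lies on chromosome 11 of mm9 from 93728334 to 93728393. The probe for the RefSeq mRNA of Utp18 was well above background on no array, so the level of that mRNA has only an upper bound here.

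All 5 late small subunit factors, which export and finish the pre-40S particle, rose, with a median difference of 0.72. Bysl, needed for assembly and export of the particle, was at 1.53, 1.49 and 1.79 against 2.48, 2.57 and 3.32, a difference of 1.19 ± 0.24 (SE, limma adjusted p = 0.0171). Atg5f/f;Vav replicate 3 stood well above the other two arrays of its group. Nob1, the nuclease that makes the 3′ end of 18S rRNA, was at 1.30, 1.25 and 1.34 against 1.78, 1.81 and 2.12, a difference of 0.61 ± 0.13 (SE, limma adjusted p = 0.0184). The export factor Rrp12 differed by 1.06, Tsr1 by 0.72 and Ltv1 by 0.71.

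Among the large subunit factors 11 of 12 passed as higher, with a median difference of 0.93 over all 12. Wdr74, a factor of early pre-60S maturation, was at 0.38, 0.20 and 0.57 against 1.51, 1.42 and 1.85, a difference of 1.21 ± 0.16 (SE, limma adjusted p = 0.0119), the lowest adjusted p of the set. The PeBoW complex, formed by Pes1, Bop1 and Wdr12 and required for maturation of 28S and 5.8S rRNA, rose in all of its subunits, by 0.81, 1.01 and 0.89. Wdr12 was at 2.80, 2.84 and 2.99 against 3.57, 3.70 and 4.03 (SE of the difference 0.15, limma adjusted p = 0.0150). This probe is named after a cDNA clone. The 3 RefSeq probes of Wdr12 rose by 0.50 to 0.97, and a further probe named after another transcript gave -0.12 (limma adjusted p = 0.61). Mrto4, which holds the place of the stalk protein, differed by 1.12, the rRNA methyltransferases Ftsj3 and Nop2 by 1.07 and 0.93, Nop16 by 0.99, Rrs1, which brings in the 5S particle, by 0.93, Noc2l by 0.79 and Rrp1b by 0.40. The call of Rrp1b was lost without control replicate 3 and without Atg5f/f;Vav replicate 2.

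Noc3l, a partner of Noc2l, was the other gene that did not pass. Its signal was -0.65, -0.70 and -0.78 against -0.69, -0.49 and -0.03, a difference of 0.31 ± 0.18 (SE, limma adjusted p = 0.216). Atg5f/f;Vav replicate 1 fell within the control range and replicates 2 and 3 stood above it. The 95% interval of the difference, from -0.12 to 0.73, holds 0 and ends below the median of the set.

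The abundant nucleolar proteins and regulators rose in 6 of 6 genes, with the highest median of the 7 role groups, 0.97. Ddx21, a helicase that links RNA polymerase I transcription to rRNA processing, was at 1.001, 0.92 and 1.43 against 2.22, 2.46 and 3.15. This difference of 1.49 ± 0.26 (SE, limma adjusted p = 0.0155), or 2.82-fold, was the largest of the set. Ncl, the nucleolar histone and RNA chaperone nucleolin, was at 5.20, 5.13 and 5.37 against 5.95, 5.98 and 6.48, a difference of 0.91 ± 0.17 (SE, limma adjusted p = 0.0166), and its further probe gave 0.19 (limma adjusted p = 0.261). The snoRNP chaperone Nolc1 differed by 1.29, the GTPase nucleostemin Gnl3 by 1.03 and the RNA polymerase I regulator Mybbp1a by 0.84.

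Npm1, the histone and ribosome chaperone nucleophosmin, had the smallest difference of that group. It was at 6.29, 6.39 and 6.35 against 6.66, 6.73 and 7.13, a difference of 0.49 ± 0.15 (SE, limma adjusted p = 0.0417). The call was lost without control replicate 3 and without Atg5f/f;Vav replicate 2. The gene is read by 3 tested probes, and the array holds one of them in 10 spots. The sequence of the representing probe and that of the 10-spot probe are printed because they read different places of the same gene, on the - strand of chromosome 11 of mm9, from 33056689 to 33056991 and from 33052849 to 33054041.
Npm1 representing probe: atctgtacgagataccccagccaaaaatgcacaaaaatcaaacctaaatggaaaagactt
Npm1 10-spot probe: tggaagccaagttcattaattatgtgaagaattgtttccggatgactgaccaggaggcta
The 10-spot probe gave a difference of 0.72 (limma adjusted p = 0.0187) and the remaining probe 0.80, both larger than the 0.49 of the representing probe. Npm1 is known for many processed copies in the genome, and whether these probes also match such copies was not checked.

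**Figure D2:**
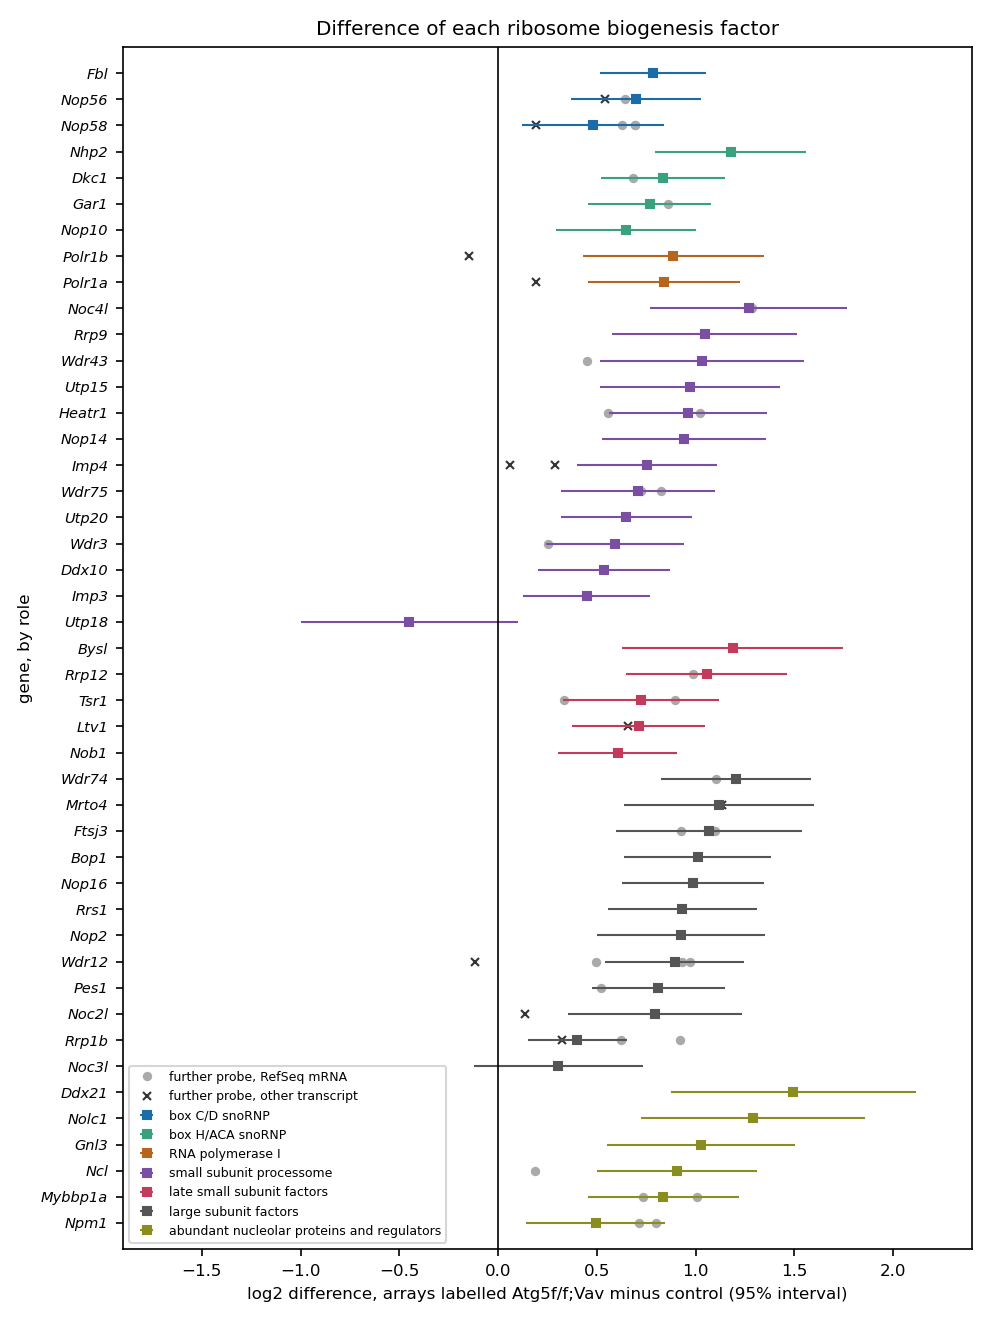
Log2 difference of each of the 45 genes, arrays labelled Atg5f/f;Vav minus control (3 arrays per group), with its 95% interval from limma (squares and lines, coloured by role), and the differences of their further tested probes (grey circles, named after a RefSeq mRNA; crosses, named after another transcript). The intervals of 43 genes lie above 0, and the 3 probes below 0, those of Utp18, Polr1b and Wdr12, are all named after other transcripts; Utp18 is at 0.09 under spike-in scaling.

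Sizes of change were set against the median of the set. The 95% interval of 40 of the 45 genes held the median of 0.84, the interval of Ddx21 lay above it, and those of Utp18, Imp3, Noc3l and Rrp1b lay below it. A difference over 1 was seen in 13 genes. The median differences of the role groups ran from 0.70 for the box C/D proteins to 0.97 for the abundant nucleolar proteins, and differences between role groups were not tested.

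The differences varied with the transcript a probe is named after, and the part of the probe in the result was not tested. Of the 91 probes for the 45 genes, 87 were tested. The 74 named after a RefSeq mRNA had a median difference of 0.82 and 68 passed as higher, while the 13 named after other transcripts had a median of 0.19 and 4 passed as higher. Among the probes that do not represent a gene, 26 of 31 RefSeq probes passed, with a median of 0.72, and 3 of 11 others passed, with a median of 0.19. Probes of Imp4, Noc2l, Nop58, Polr1a, Polr1b, Rrp1b and Wdr12 for other transcripts and RefSeq probes of Heatr1, Ncl, Tsr1, Wdr3 and Wdr43 were the further probes that did not pass. Some of these were dim and others were not: the mean log2 signal was -3.26 for that of Wdr12 and 2.58 for that of Noc2l. Signal level was not separated from the naming of the probe.

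The arrays within a group differed in the same direction across most of the set. Relative to the control mean of each gene, the median over the 45 genes was -0.06, -0.09 and 0.14 on control arrays 1 to 3 and 0.70, 0.70 and 1.11 on the arrays labelled Atg5f/f;Vav. Atg5f/f;Vav replicate 3 was the highest of its group in 44 of 45 genes, against 44.7% of all gene names, and control replicate 3 the highest of its group in 40 of 45, against 43.0%. The spread was wider in the group labelled Atg5f/f;Vav for 38 of 45 genes, with a median SD of 0.24 against 0.15 in the controls. This share was not counted over all gene names. Across the tested probes, arrays labelled Atg5f/f;Vav correlated with each other at 0.982 to 0.992 and control arrays at 0.993. Whether the wider spread is particular to the set was not tested. Without Atg5f/f;Vav replicate 3 the median difference was 0.72 and 41 genes passed, and without control replicate 3 it was 0.94 and 39 passed.

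**Figure D3:**
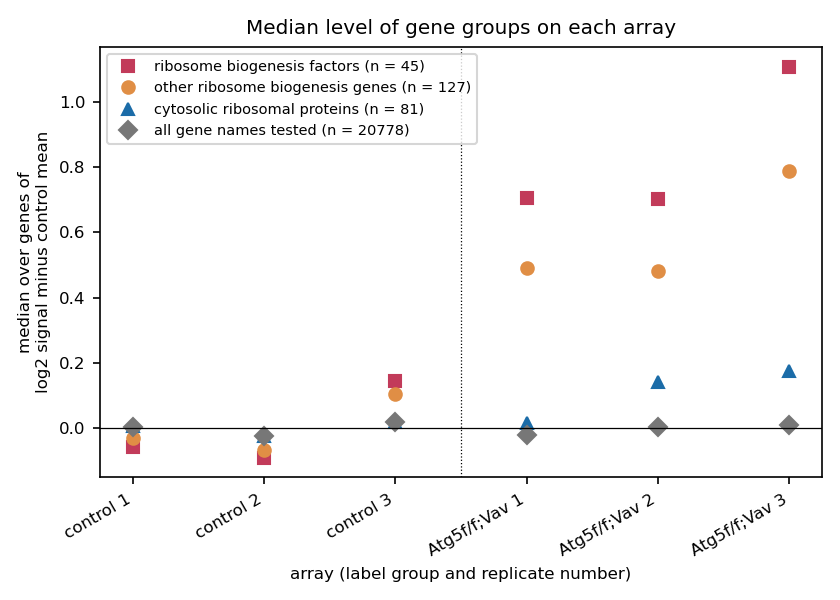
Median over genes of the log2 signal minus the control mean (vertical axis), on each of the 6 arrays (horizontal axis), for the 45 ribosome biogenesis factors, 127 other ribosome biogenesis genes, 81 cytosolic ribosomal proteins and all 20778 gene names tested. The factors stand at 0.70, 0.70 and 1.11 on the arrays labelled Atg5f/f;Vav, while the ribosomal proteins stay between 0.01 and 0.18 there.

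A second list held 129 other genes of the pathway, of which 127 were tested (not Abt1 and Rpp25). Of these, 96 passed as higher in limma, 0 passed as lower, also at an unadjusted p under 0.05, and the median difference was 0.58. Higher calls went to 7 of 13 subunits and factors of RNA polymerase I, 27 of 33 processome genes, 5 of 10 late small subunit factors, 40 of 50 large subunit factors and 17 of 21 genes of RNase MRP and the exosome. The 3 largest rises were 1.07 for Pno1, a late small subunit factor, 1.05 for Pop1, a protein of RNase MRP, and 1.03 for Slx9, another late small subunit factor. Pno1 was at 2.23, 2.21 and 2.49 against 3.23, 3.15 and 3.75. Without control replicate 1 or 2 none of the 127 passed in limma, with 96 and 93 at an unadjusted p under 0.05, and the methods' t-test gave 0 after adjustment, with 105 at an unadjusted p under 0.05. The E-box stood in 20 of the 105 genes of this list with a promoter entry (19.0%).

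The proteins of the finished cytosolic ribosome, whose assembly these factors serve, had smaller differences. Of 81 such genes tested, 6 passed as higher in limma, and none passed as lower, with 13 higher and 0 lower at an unadjusted p under 0.05. The list was taken by gene symbol and also holds like-named genes. Of these, Rpl7l1, Rps27l and Rpl36al passed, with differences of 0.74, 0.72 and 0.62. The other calls were Rpl27, Rpl7a and Rpl8. The groups of 33 of the 81 genes did not overlap with Atg5f/f;Vav higher, and those of 1 did not overlap with Atg5f/f;Vav lower. Among all gene names tested, 29.6% did not overlap with Atg5f/f;Vav higher and 18.7% passed as higher. The median difference was 0.10, with 90% of the genes below 0.28. Their promoters held the E-box in 6 of 61 genes (9.84%). The difference between this list and the biogenesis factors was not tested.

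**Figure D4:**
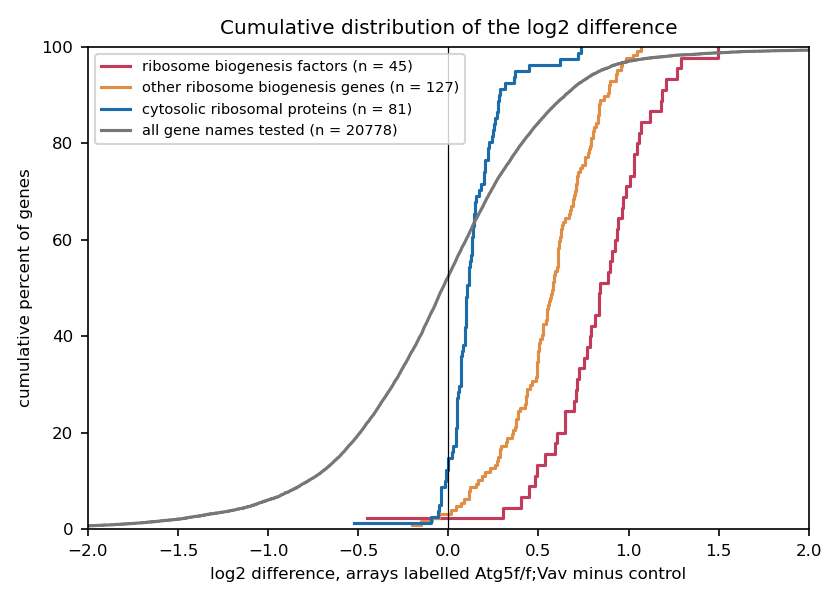
Cumulative percent of genes (vertical axis) at or below each log2 difference, arrays labelled Atg5f/f;Vav minus control (horizontal axis, shown from -2 to 2), for the biogenesis factors, the other genes of the pathway, the cytosolic ribosomal proteins and all gene names. The medians are 0.84, 0.58, 0.10 and -0.03.

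Myc and its partners and antagonists were read on the same arrays, and their part in the result for the biogenesis factors was not tested. Myc rose: it was at 2.06, 1.997 and 2.30 against 3.13, 2.94 and 3.17, a difference of 0.96 ± 0.13 (SE, limma adjusted p = 0.0123). Its obligate partner Max rose by 0.48 and the related Mlx by 0.55, and the call of Max was lost without control replicate 3 and without Atg5f/f;Vav replicate 2 or 3. Mycn, the family member known from stem cells, was at 4.02, 3.98 and 3.56 against 3.44, 3.11 and 1.97, a difference of -1.01 ± 0.37 (SE, limma adjusted p = 0.0711) that did not pass although the groups did not overlap. The remaining 6 of the 10 genes tested, the antagonists Mxd1, Mxd3, Mxd4, Mxi1 and Mnt and the related Mga, did not pass, and Mycl was not tested. Of these, Mxd4 differed by -0.71 and Mxi1 by -0.23, with groups that did not overlap. The groups of Mxd1, Mxd3, Mnt and Mga overlapped. Without control replicate 1 or 2 the limma adjusted p of Myc was 0.0628 in each case, that of Max 0.132 and 0.119, and that of Mlx 0.0802 and 0.0789.

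Markers of cell state and of other cell types moved between the same groups of arrays, and their part in the result for the biogenesis factors was not tested. In RNA from a sorted population, fewer cells of a type and less RNA per cell cannot be told apart. All 12 proliferation genes passed as higher, with a median of 0.80, and their summed linear signal, in units of the 75th percentile, was 100.01 to 132.9 on the control arrays and 171.5 to 232.5 on the others, highest on Atg5f/f;Vav replicate 3. Of 8 stem cell markers 6 passed as lower and none as higher, with a median of -1.51 and a sum of 42.9 to 46.9 against 13.1 to 27.3, lowest on the same replicate. Of 6 genes of the gate and its subsets 1 passed as higher and none as lower: Ly6a (Sca-1) rose by 1.57 and Kit differed by -0.38 (limma adjusted p = 0.0563). Flt3 differed by -0.87 (limma adjusted p = 0.0675), and in Kit and Flt3 the groups did not overlap. Cd34 differed by -0.27, Cd48 by 0.31 and Slamf1 by 0.41, with groups that overlapped. All of these genes were well above background on all 6 arrays.

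Erythroid genes were split, 5 of 12 higher (Epor, Klf1, Gata1, Car1 and Tfrc) and 4 lower (Alas2 and the globins Hba-a1, Hbb-b1 and Hbb-bt), with a globin-rich sum of 369.9 to 743.6 against 174.2 to 243.5. Granulocyte markers had 3 of 10 higher and 5 lower and sums of 181.4 to 300.2 against 245.2 to 304.3. Of 5 stromal markers tested 3 passed as lower, with sums of 2.83, 31.2 and 24.4 on the control arrays against 0.99 to 1.68, and Col3a1 and Lum were not tested. The 6 megakaryocyte markers had 1 higher and 3 lower, the 6 mast cell and eosinophil markers 1 each way and the 6 B cell markers 1 higher. None of 4 macrophage and 4 T and NK cell markers tested passed in limma, and 0 of either list had an unadjusted p under 0.05, and C1qa, Mrc1, Cd3g and Cd8a were well above background on too few arrays to be tested.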

How the data were processed

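RNA of LSK cells was measured in 3 control and 3 Atg5f/f;Vav samples, grouped by their labels. The 45 genes and all gene lists were chosen with earlier results of these data known. The authors deposited scanner intensities, which Agilent Feature Extraction 12.0.3.1 had corrected for background and spatial trend, and a table of signal, in which each intensity is divided by its array's 75th percentile. From the deposited intensity, log2 values were taken minus the array's 75th percentile over its 59305 non-control spots. Per array, 64 to 81 spots with an outlier flag were dropped, no spot was saturated, and spots of 1 probe were averaged. limma 3.58.1 (R 4.3.3; lmFit, eBayes, 2-sided test, Benjamini-Hochberg adjustment, threshold 0.05) was run on the 32074 of 56605 probes that exceeded background well on 3 or more of 6 arrays. Probe coordinates are mm9 as in the files, and promoter coordinates GRCm38.p6.

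All values are printed for the largest and smallest difference in each role group, for Polr1a, Polr1b, Ncl, Npm1 and Fbl, and for genes that did not pass or whose other probe went the other way. Of the other pathway genes, the 3 largest rises that passed are named. The alternatives were normexp correction (offset 50), quantile normalisation, the 75th percentile of detected probes only, spike-in scaling, the deposited values, outliers kept, no filter or all 6 arrays, an intensity trend, a replicate block, the methods' t-test, each array left out and the mean of all probes. No block for slide or scan could be fitted, since all arrays shared 1 slide and 1 scan. Protein sequences were not used here.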

Additional observations from a re-analysis of the deposited data

How the results depend on the processing

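No gene of the set passed as lower under any alternative run, and 32 to 43 passed as higher except where named here. Leaving out each array gave 0 to 42 genes higher, 0 to 89 other pathway genes higher, 108 to 3481 gene names higher and 54 to 3288 lower, lowest without control replicate 2 and near that without control replicate 1 (124 and 78 gene names); without control replicate 3, 2095 were lower. The medians then ran from 0.72 to 0.94 for the set. The methods' t-test gave 0 genes of the set, 0 other pathway genes and 0 gene names higher or lower after adjustment, with 43, 105 and, over all gene names in either direction, 8798 at an unadjusted p under 0.05. Without a filter on dim probes 32 of the set, 42 other pathway genes and 1618 gene names passed as higher and 1212 as lower, and the median of all gene names was 0.0861.

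The median of all gene names was -0.24 with the 75th percentile taken over detected probes, 0.51 with spike-in scaling and -0.02 with quantile normalisation, and the set's median was 0.63, 1.38 and 0.60. The other pathway genes had medians of 0.37, 1.12 and 0.39. The detected-probe percentile and spike-in scaling shift every gene of an array by the same amount. Relative to the median of all gene names the set therefore stood 0.87 higher under both by construction, as in the reported values. Under quantile normalisation, which moved genes by unequal amounts, it stood 0.61 higher. Of all calls, 54.9% were higher as reported, 28.4% with the detected-probe percentile (2387 higher, 6028 lower) and 89.7% with spike-in scaling (2693 higher, 310 lower). Utp18 turned from -0.45 to 0.0899 under spike-in scaling. Nop58, Npm1, Imp3 and Rrp1b lost their calls under each of these 3 scalings, Ddx10 under the detected-probe percentile and spike-in scaling, and Nop10 and Nop56 under quantile normalisation.

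The labels do not say whether the replicate numbers pair the arrays. Deviations of same-numbered arrays correlated at -0.07, 0.19 and 0.11, and those of differently numbered arrays at -0.30 to 0.13. With 3 arrays per group these values cannot decide whether the arrays are paired. With a replicate block 42 genes of the set passed as higher (all of the 43 but Npm1, limma adjusted p = 0.0548), 93 other pathway genes and 3726 gene names, and 2827 gene names as lower. All 45 representing probes were well above background on all 6 arrays. For Utp18 this holds only for a probe named after a cDNA clone, since its RefSeq probe was well above background on no array.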
